A study of Mus musculus with 4 samples.

Results

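The 9 genes described here, Vdr, Trpv6, S100g, Atp2b1, Cyp24a1, Cyp27b1, Trpm6, Casr and Calb1, form the vitamin D pathway and the route by which the gut takes up calcium and magnesium. They were taken by name from the 21153 genes that had a named probe on the array, and all 9 had at least 1 probe, 11 probes in all. The study measured total RNA of small intestine in 2 samples of Cyp3a-/- mice, in which the Cyp3a cluster of cytochrome P450 genes is deleted, and in 2 of wild-type mice, each on 1 array. Per the labels the experiment was run independently on different animals. Age, sex, strain, the stretch of intestine taken and the number of animals per array are not given in the sources used here, so p-values measure only the spread between these samples. Levels are log2 signals after subtraction of each array's 75th percentile, and every difference is knockout minus wild type.

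Calcium is absorbed across enterocytes in steps. It enters from the gut lumen through the channel TRPV6, is carried through the cell by the binding protein calbindin-D9k (encoded by S100g), and is pumped out towards the blood by the calcium pump encoded by Atp2b1. The hormone calcitriol drives this route by binding the vitamin D receptor, encoded by Vdr, which acts as a dimer with a retinoid X receptor on pairs of short hexamers in DNA. Calcitriol is made by the enzyme encoded by Cyp27b1 and broken down by the one encoded by Cyp24a1, and in human CYP3A4 can also oxidise vitamin D metabolites. The comparison asks whether the genes of this route differed in intestine without the Cyp3a cluster.

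The 3 upstream windows below are printed because S100g and Trpv6 are the calcium absorption genes best known to respond to calcitriol, while Vdr encodes its receptor. Each is the 250 bases before the RefSeq gene start on build GRCm38.p6, read 5′ to 3′ on the gene's strand, with the hexamer AGGTCA or its reverse complement TGACCT in capitals. The windows are chrX:162964600-162964849 for S100g, chr6:41636406-41636655 for Trpv6 and chr15:97908297-97908546 for Vdr, all on the minus strand.
S100g: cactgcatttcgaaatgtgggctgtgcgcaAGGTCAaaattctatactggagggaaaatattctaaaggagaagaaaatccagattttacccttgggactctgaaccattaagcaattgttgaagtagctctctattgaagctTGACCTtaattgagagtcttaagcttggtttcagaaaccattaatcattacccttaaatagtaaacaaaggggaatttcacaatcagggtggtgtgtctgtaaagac
Trpv6: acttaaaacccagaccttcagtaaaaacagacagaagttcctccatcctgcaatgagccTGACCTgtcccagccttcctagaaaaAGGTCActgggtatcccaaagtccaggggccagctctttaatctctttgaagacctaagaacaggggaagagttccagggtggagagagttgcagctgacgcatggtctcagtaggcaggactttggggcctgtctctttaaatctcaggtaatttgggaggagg
Vdr: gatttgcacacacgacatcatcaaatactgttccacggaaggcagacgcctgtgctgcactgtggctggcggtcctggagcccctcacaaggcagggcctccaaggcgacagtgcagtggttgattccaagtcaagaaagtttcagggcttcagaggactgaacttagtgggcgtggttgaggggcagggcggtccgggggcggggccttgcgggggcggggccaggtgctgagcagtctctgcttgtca
The S100g window held 2 such hexamers, with first bases 220 and 107 bases before the start. The Trpv6 window also held 2, at 191 and 165 bases before the start. The Vdr window held 0. Among the 32851 RefSeq windows of that length, 14.0% held at least 1 hexamer on either strand and 1.36% held 2 or more. Of the 9 genes, 7 had windows to search, 8 in all since Atp2b1 had 2, and S100g and Trpv6 were the 2 genes with a hexamer. Cyp24a1 and Calb1 had no window, so they were searched neither for the hexamer nor for the element described next. A DR3 element, the paired and more permissive form of the hexamer with a 3-base gap, was in 0 of the 8 windows and in 0.222% of all windows. A match is a description of letters in a short window, and elements farther away were not searched.

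The deletion itself was plain on the arrays. Cyp3a11, which encodes a major P450 of mouse gut and is itself a target of the vitamin D receptor, had levels of -5.77 and -4.52 in the knockout arrays, against 5.05 and 5.78 in the wild-type arrays. Neither knockout array was well above background on this probe, so the signal was at least 920-fold lower there. The other, dimmer Cyp3a11 probe had levels of -3.48 and -4.31 in knockout and 2.42 and 2.86 in wild type. Its log2 difference was smaller, at -6.54. On the brighter probe the measured log2 difference was -10.56 with an SE of 0.49 (adjusted p = 0.00235 in limma). The difference was -10.92 without wild type 1 and -10.20 without wild type 2, about as large, though limma no longer called it (adjusted p = 0.0759 and 0.086). Knockout 1 and wild type 2 were hybridised on one slide and scanned together, while each other array had a slide of its own. Across genes knockout 1 correlated at 0.948 with knockout 2, lower than at 0.966 and 0.962 with the wild-type arrays. Of 14399 genes tested, 6 passed an adjusted p of 0.05 (0.0417% of genes), all lower in knockout, and 0 of them were among the 9. At an unadjusted p under 0.05 there were 24 genes higher (0.167%) and 40 lower (0.278%), and also 0 of the 9.

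Of the 9 genes, Vdr, Trpv6, S100g and Atp2b1 were well above background on all 4 arrays, and none of these 4 changed past the spread between arrays. In each the knockout levels overlapped the wild-type levels on the probe used, though not on the other S100g probe. Over all genes tested, 14.7% had groups that did not overlap, so overlap in all 4 genes is near the common case. The differences of these 4 genes were between -0.27 and 0.16, with a median of 0.14 against 0.04 over all genes tested. Differences were positive in 3 of the 4, against 56.2% of all genes, but after normexp background correction all 4 were negative, between -0.82 and -0.43, and none passed limma's test. The other 5 genes, Cyp24a1, Cyp27b1, Trpm6, Casr and Calb1, did not rise well above background on any of the 4 arrays and were not tested.

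**Figure D1:**
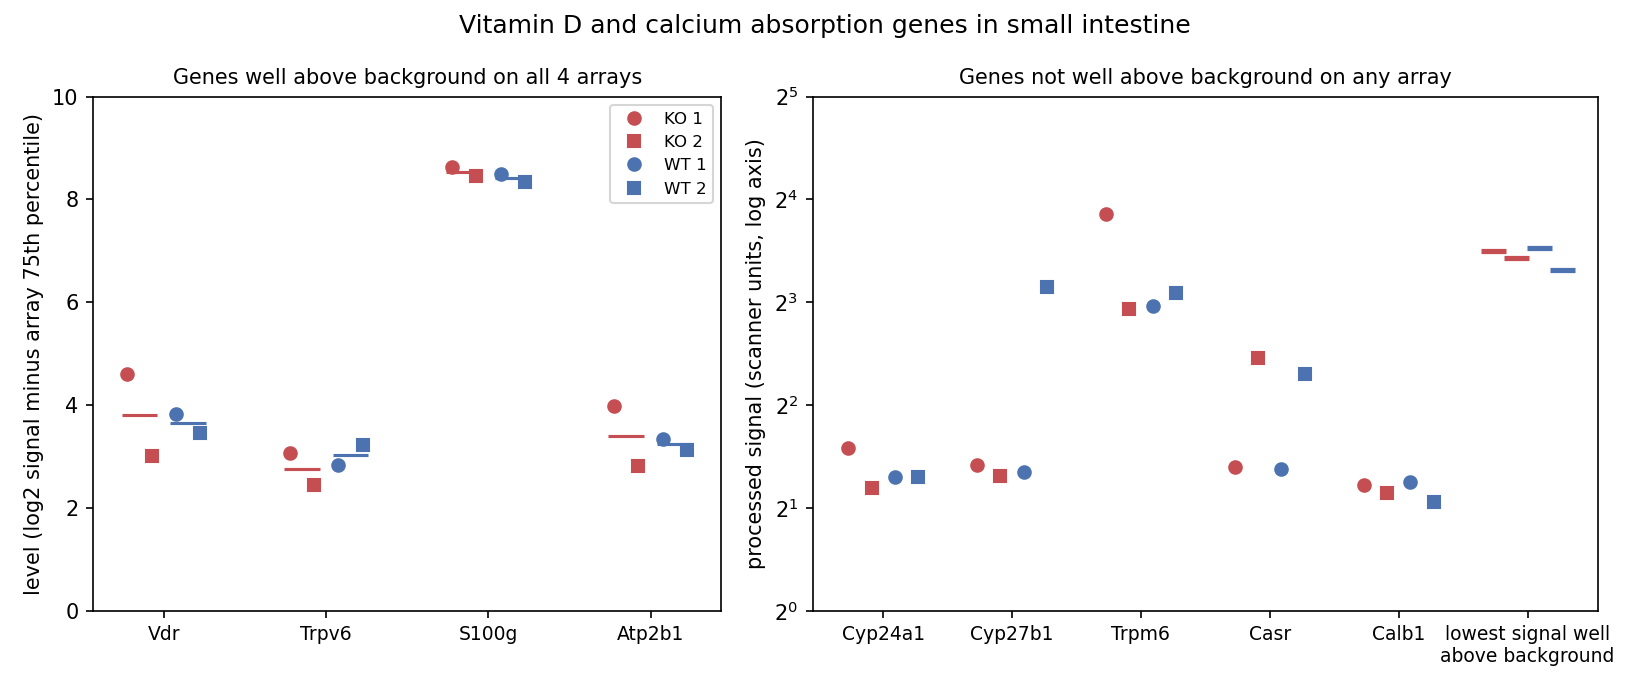
Left, log2 level relative to the array's 75th percentile in each of the 2 knockout (KO, red) and 2 wild-type (WT, blue) arrays for the 4 genes well above background, with group means as bars; each gene's groups overlap. Right, processed scanner signal on a log axis for the 5 genes not well above background on any array. Beside them is the lowest signal that any probe well above background had on each array. The highest of the 20 points is Trpm6 in knockout 1 at 14.5. It lies above that array's lowest such signal of 11.3, though the probe was not called well above background.

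Vdr, the receptor, had levels of 4.61 in knockout 1 and 3.01 in knockout 2, against 3.83 in wild type 1 and 3.45 in wild type 2. The highest and the lowest level were both in knockout arrays, so the groups overlapped. Vdr averaged 3.81 ± 1.13 in knockout and 3.64 ± 0.27 in wild type (SD, n = 2 each). The log2 difference was 0.16 (SE 0.54, limma's adjusted p = 1.00), with a 95% interval that runs from a 0.45-fold to a 2.79-fold level. It was -0.64 without knockout 1 and 0.97 without knockout 2, so its sign depended on which knockout array was kept. Between the arrays that shared a slide, Vdr was 1.16 higher in knockout 1 than in wild type 2.

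Trpv6, the channel by which calcium enters the enterocyte, had levels of 3.07 and 2.45 in knockout 1 and 2, against 2.83 and 3.22 in wild type 1 and 2. Knockout 2 was the lowest array and knockout 1 lay between the wild-type arrays. Trpv6 averaged 2.76 ± 0.44 in knockout and 3.03 ± 0.27 in wild type (SD, n = 2 each). The log2 difference of -0.27 (SE 0.33) did not pass limma's test (adjusted p = 1.00), and its 95% interval covers 0.475-fold to 1.46-fold. Without knockout 2 the difference was 0.04 and within the shared slide it was -0.15.

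S100g, which encodes the cytosolic calcium carrier calbindin-D9k, varied least among the 4 genes, by 0.29 from its lowest to its highest array, against a median of 0.66 over all genes tested. Its levels were 8.64 and 8.45 in knockout 1 and 2, and 8.50 and 8.35 in wild type 1 and 2. The means were 8.54 ± 0.14 in knockout and 8.42 ± 0.11 in wild type (SD, n = 2 each). The groups overlapped by little, with wild type 1 above knockout 2. The log2 difference was 0.12 (SE 0.40, limma's adjusted p = 1.00), and the 95% interval runs from 0.551-fold to 2.14-fold, wider than the arrays' own spread because limma shares variance among genes of like intensity. The other S100g probe had levels of 8.34 and 8.30 in knockout and 8.26 and 8.08 in wild type. On that probe both knockout values exceeded both wild-type values, with a log2 difference of 0.15 whose 95% interval spans -0.64 to 0.94.

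Atp2b1, the pump that moves calcium out of the cell, had levels of 3.99 and 2.81 in knockout 1 and 2, against 3.35 and 3.13 in wild type 1 and 2. As for Vdr, knockout 1 was the highest array and knockout 2 the lowest. Atp2b1 averaged 3.40 ± 0.83 in knockout and 3.24 ± 0.15 in wild type (SD, n = 2 each), a log2 difference of 0.16 (SE 0.43, limma's adjusted p = 1.00). The 95% interval covers 0.54-fold to 2.31-fold. The difference was -0.43 without knockout 1 and 0.75 without knockout 2. The other Atp2b1 probe kept this order of the knockout arrays over a wider range, with 2.13 and 0.05 in knockout 1 and 2 and 0.79 and 0.98 in wild type 1 and 2. Its log2 difference was 0.20 (SE 0.65).

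**Figure D2:**
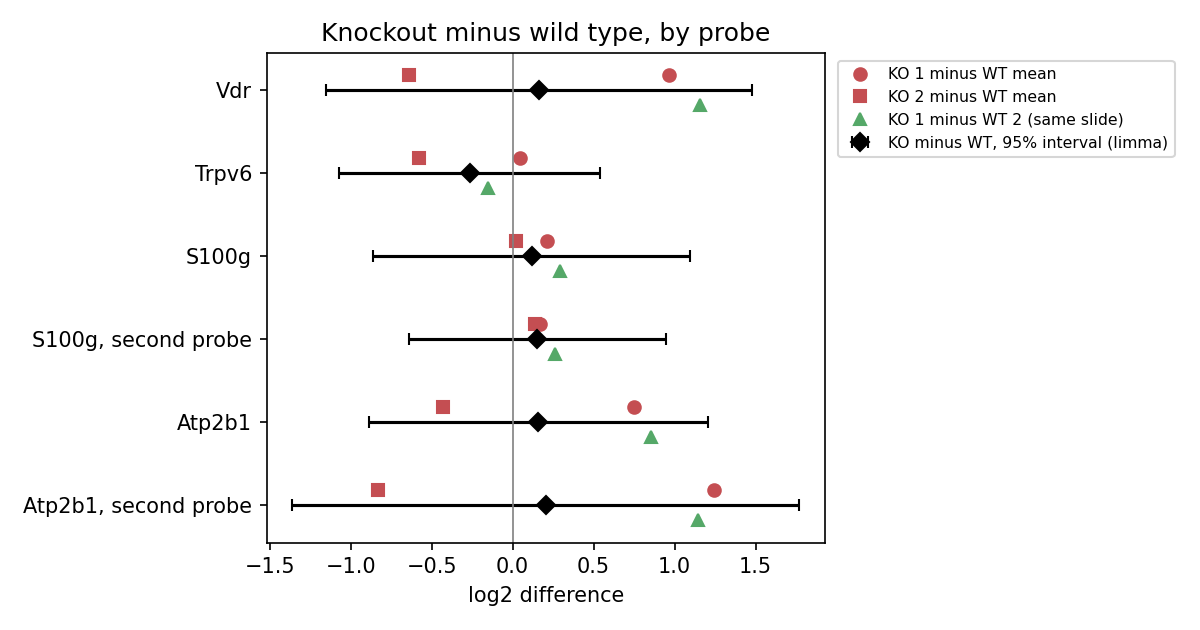
Log2 difference, knockout minus wild type, for the 6 probes well above background on all arrays (black diamonds, 95% intervals from limma), with each knockout array minus the wild-type mean (red) and knockout 1 minus wild type 2, which shared a slide (green). Every interval includes 0; the knockout arrays fall on opposite sides of 0 for Vdr (0.97 and -0.64), Trpv6 (0.04 and -0.57) and both Atp2b1 probes, and on the same side for both S100g probes.

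The remaining 5 genes gave signals near the array's floor. The 153 negative control spots of each array had a 95th percentile of processed signal between 3.11 and 3.56, and the lowest probe called well above background had a signal between 9.94 and 11.53. Of the 20 values of these 5 genes, 7 lay above that 95th percentile of their own array, and none was called well above background. No fold is given where both genotypes are not well above background.

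Cyp24a1, which encodes the enzyme that inactivates calcitriol and is a strongly inducible target of the receptor, had processed signals of 3.0 and 2.29 in knockout 1 and 2, against 2.46 and 2.47 in wild type 1 and 2. All 4 values lay below the negative controls' 95th percentile. Calb1, which encodes calbindin-D28k, the larger calcium carrier best known from kidney and brain, had 2.34 and 2.21 in knockout and 2.38 and 2.08 in wild type, likewise with 0 of 4 above. Cyp27b1, which encodes the enzyme that makes calcitriol and acts mainly in kidney, had 2.67 and 2.48 in knockout, against 2.54 and 8.89 in wild type 1 and 2. Wild type 2 was the 1 array of 4 where its signal passed the controls' 95th percentile.

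Casr, the receptor that senses extracellular calcium, had signals of 2.64 and 5.50 in knockout 1 and 2, against 2.61 and 4.92 in wild type 1 and 2. Replicate 2 of each genotype was above that percentile. Trpm6, the channel that takes up magnesium, was above it on all 4 arrays, with signals of 14.5 and 7.67 in knockout 1 and 2, against 7.78 and 8.54 in wild type 1 and 2. Before scaling, the highest and the lowest Trpm6 signal were both in knockout arrays. As scaled log2 levels, Trpm6 stood at -4.47 and -4.51 in knockout 1 and 2, against -4.86 and -5.38 in wild type 1 and 2. On that scale both knockout values lay above both wild-type values. No array called this probe well above background, and the difference was not tested.

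The 4 detected genes fell into different array patterns. Relative to the wild-type mean, Vdr stood at 0.97 and -0.64 in knockout 1 and 2 and Atp2b1 at 0.75 and -0.43. S100g stood at 0.21 and 0.02, and Trpv6 at 0.04 and -0.57. Knockout 1 was the highest array for 3 of the 4, against 34.1% of all genes tested. The spread of Vdr and Atp2b1 within the knockout group moved with several lists of cell type markers. The 10 enterocyte markers, all tested and led by Fabp2 and Anpep, had median deviations from the wild-type mean of 0.91 and -0.34 in knockout 1 and 2, against 0.32 and -0.32 in wild type 1 and 2, and 8 of the 10 were highest in knockout 1. Their summed signal, in multiples of the array's 75th percentile, was 1027 and 651 in knockout and 880 and 551 in wild type. The 7 tested markers of the proximal small intestine, where calcium uptake by this route is strongest, deviated by 0.63 and -0.35 in knockout 1 and 2. Their summed signal was 669.6 and 320.4 in knockout and 458 and 332.7 in wild type. The 7 distal markers went the same way, further in knockout 1 but not in knockout 2, at 1.23 and -0.32. Of the 7, 6 were highest in knockout 1, and Slc10a2 was well above background on 2 arrays only. Their summed signals were 24.2 and 8.64 in knockout and 13.1 and 11.7 in wild type.

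The pattern was not particular to enterocytes. Enteroendocrine markers, with 6 tested, had median deviations of 0.54 and -0.21 in knockout 1 and 2, against 0.44 and -0.44 in wild type 1 and 2. Those of goblet and Paneth cells, with 5 tested, stood at 0.71 and 0.05 in knockout, against 0.17 and -0.17 in wild type. T cell markers, with 6 tested, stood at 0.66 and -0.67 in knockout, against 0.28 and -0.28 in wild type. These were split, with 4 highest and 2 lowest in knockout 1. Other lists did not share the pattern. B and plasma cell markers, with 4 tested, stood at -0.29 and -0.46 in knockout 1 and 2. Enteric neuron and glia markers, with 8 tested, stood at -0.77 and -0.20, and 7 were lowest in knockout 1.

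Smooth muscle markers ran the other way from enterocyte markers. All 7, led by Tagln and Acta2, were lowest in knockout 1, with median deviations of -0.91 and 0.68 in knockout 1 and 2, against -0.06 and 0.06 in wild type 1 and 2. Their summed signal was 104 and 316 in knockout and 184 and 209 in wild type. Markers of gastric surface mucous cells, of which all 4 were tested, varied far more, with summed signals of 0.976 and 861 in knockout and 26.3 and 477 in wild type. In whole tissue, fewer cells of a type and less RNA per cell cannot be told apart. Set against the enterocyte markers, array by array, Vdr ranged over 0.43 instead of 1.60 and Atp2b1 over 0.43 instead of 1.18, while S100g ranged over 1.07 instead of 0.29 and Trpv6 over 1.39 instead of 0.77. On that scale, chosen after the values were seen, the log2 differences were -0.12 for Vdr, -0.55 for Trpv6, -0.17 for S100g and -0.13 for Atp2b1, where the median over all genes tested was -0.25, and none passed limma's test. The part of tissue composition in these values was not tested.

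**Figure D3:**
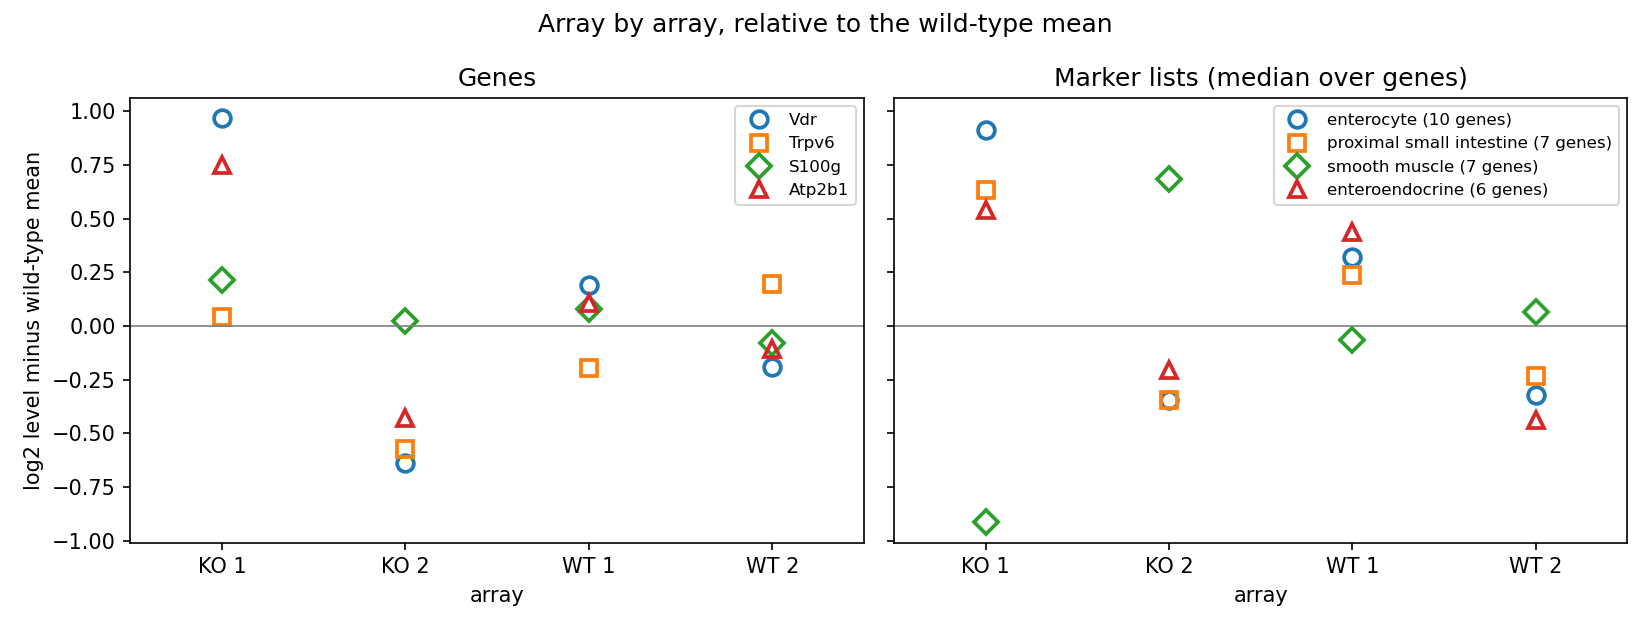
Log2 level minus the wild-type mean on each array (x axis; KO, knockout; WT, wild type) for the 4 detected genes (left) and for marker lists as the median over their tested genes (right). Vdr and Atp2b1 are highest in knockout 1 and lowest in knockout 2. The median of the 10 enterocyte markers is highest in knockout 1 at 0.91, and nearly equal in knockout 2 (-0.34) and wild type 2 (-0.32). The 7 smooth muscle markers are lowest in knockout 1.

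For the 2 detected genes that varied by at least 1 on the log2 scale, the genes with the most similar levels over the 4 arrays were sought among 13043 genes well above background on all arrays, each centred on its own mean. Those nearest to Vdr were Muc2, which encodes the main secreted gut mucin, AW112010 and Ms4a8a, with root mean square differences of 0.031, 0.043 and 0.047, and 135 genes lay within 0.15. Muc2 had levels of 3.74 and 2.13 in knockout 1 and 2, against 2.89 and 2.59 in wild type 1 and 2. Among those nearest to Atp2b1 were Nos2, which encodes the inducible nitric oxide synthase, and Ociad2, with differences of 0.019 and 0.020, and 450 genes lay within 0.15. With 4 arrays many genes share a pattern this closely.

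The wider pathway was read from 67 further genes in 6 lists, of which 54 were tested and 31 had positive differences. Apart from Cyp3a11, 0 of 53 passed limma's test. Both knockout levels exceeded both wild-type levels in 7 of the 54 (13.0%, against 8.65% of all genes tested) and were both lower in 2 of the other 53 (3.77%, against 6.08%). Among the 7 were Cldn12, Calm2, Slc41a3, Stim1, Anxa2 and Ghr, the last 3 named after their values were seen. The 2 were Cacna1d and Klb, both near background. Klb passed the filter through its 2 wild-type arrays only, and Cacna1d was well above background on 3 arrays. After normexp background correction both differences were positive, at 0.67 for Cacna1d and 0.61 for Klb, so the count of 2 is not a result about these genes. Fitted over all 4 arrays, limma gave an adjusted p of 1.00 for every gene of these lists described next. Without knockout 2 limma called 138 of all genes higher and 303 lower, among them Cubn (adjusted p = 0.00271), Cldn2 (adjusted p = 0.0305) and Atp2a3 (adjusted p = 0.0242). In that fit the spread comes from the wild-type pair, and the lone knockout array is assumed to vary like it.

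Genes that supply vitamin D had a median difference of 0.13 over the 4 tested of 6, with 2 positive. Cyp2r1, which encodes a main enzyme for the liver step of vitamin D activation, differed by -0.01 (SE 0.60). Its levels were 2.33 and 0.84 in knockout 1 and 2, and 0.99 and 2.19 in wild type 1 and 2. The 2 higher values were on the arrays that shared a slide, knockout 1 and wild type 2. On the other, dimmer probe these arrays were also highest, over a narrower range, with -2.23 and -2.96 in knockout and -2.67 and -2.52 in wild type. An effect of the slide was not tested. Cyp27a1, a mitochondrial sterol hydroxylase, was near background and differed by -0.19. Cubn, an endocytic receptor that in kidney takes up vitamin D with its binding protein and is also in the distal small intestine marker list, was 2.21 above the wild-type mean in knockout 1 and -0.39 from it in knockout 2. Its difference was 0.91 (SE 0.80). Dhcr7, which uses up the precursor of vitamin D to make cholesterol, differed by 0.26 (SE 0.39).

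Partners of the receptor, the retinoid X receptors and coregulators, had a median difference of 0.05, with all 10 tested and 6 positive. The corepressor gene Ncor1 differed by 0.26, and the coactivator genes Ncoa3 and Ncoa1 by 0.15 and 0.09.

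Among other targets of the receptor 6 of 9 were tested, with a median of -0.0036 and 3 positive. Cldn12, a claudin of the route between cells, was at 2.15 and 2.05 in knockout and at 1.95 and 1.88 in wild type (difference 0.19, SE 0.26). Cldn2, a claudin that lets cations pass between cells, had levels of 0.57 and 2.26 in knockout and 1.75 and 2.70 in wild type. Its difference was -0.81 (SE 0.61), and -1.65 without knockout 2. The other, dimmer Cldn2 probe had a smaller difference of -0.38. Its levels were -1.27 and 0.24 in knockout 1 and 2, against -0.32 and 0.05 in wild type 1 and 2, so knockout 2 was its highest array. Cdkn1a, a cell cycle inhibitor, differed by 0.13.

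Other calcium transport genes had a median of 0.16, with 18 of 20 tested, 11 positive and 7 negative. Calm2, a calmodulin gene, differed by 0.28 (SE 0.31) without overlap. Atp2a3, a calcium pump of the endoplasmic reticulum, had levels of 1.41 and 3.14 in knockout and 2.74 and 3.14 in wild type, a difference of -0.66 (SE 0.57), and of -1.53 without knockout 2. Cacna1d, a voltage-gated calcium channel gene, was well above background on 3 arrays and differed by -0.79 (SE 0.58). Trpv5, the renal relative of Trpv6, was near the floor and was not tested.

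Other magnesium transport genes had a median of 0.14, with all 12 tested and 8 positive. The differences were -0.95 (SE 0.59) for Slc41a1 and 0.48 (SE 0.43) for Slc41a3, both of a family of magnesium carriers. Cnnm4, which exports magnesium from epithelial cells, differed by 0.42 (SE 0.32) and its relative Cnnm1 by 0.40. Hormones and receptors of calcium balance had a median of -0.19, with 6 of 12 tested and 2 positive. Klb, which encodes a coreceptor for endocrine fibroblast growth factors, passed the background threshold on the 2 wild-type arrays only. Its difference in measured signal was -1.37 (SE 0.66). Since the knockout arrays were not well above background, that signal bounds the difference only at 1.84-fold or more. Normexp background correction turned the difference to 0.61, so its direction depended on the background correction. The prolactin receptor gene Prlr differed by 0.38, the stanniocalcin gene Stc2 by -0.44 and the parathyroid hormone receptor gene Pth1r by -0.27.

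**Figure D4:**
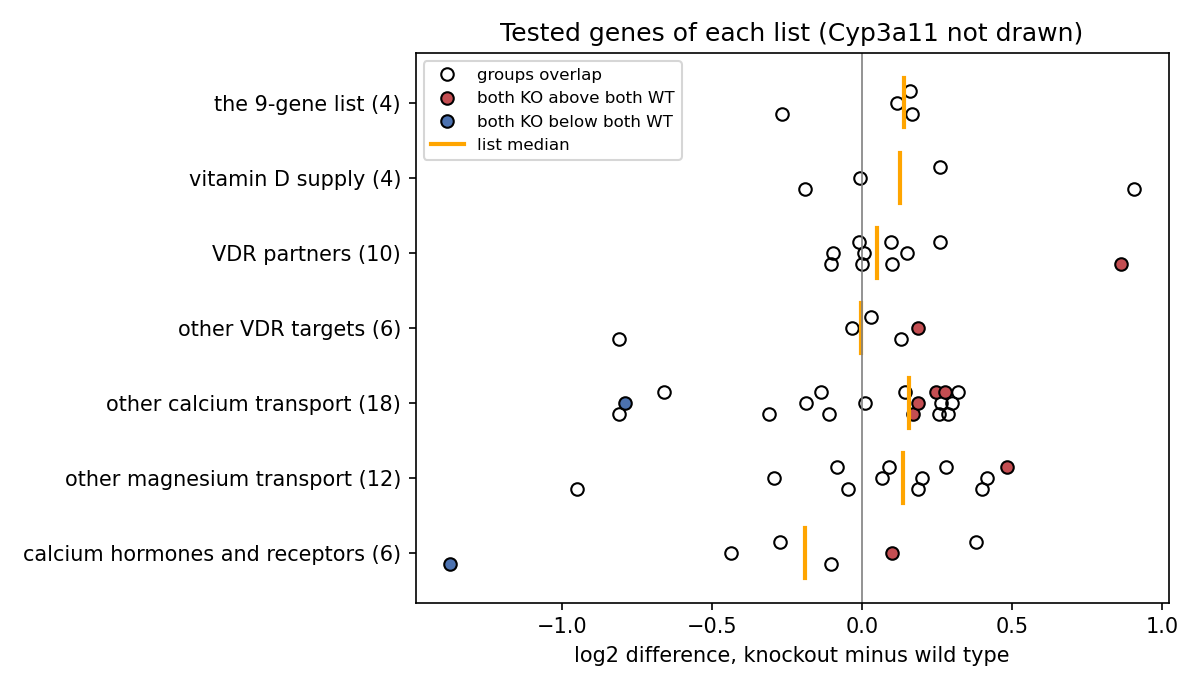
Log2 difference, knockout minus wild type, of each tested gene in the 9-gene list and in 6 further lists, with the number tested in brackets and list medians as orange bars. Filled circles are genes whose groups do not overlap (red, both knockout arrays above both wild-type arrays; blue, below); Cyp3a11, at -10.56, is not drawn, and list medians lie between -0.19 and 0.16.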

How the data were processed

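The arrays are 1-colour Agilent designs, hybridised with Cy3-labelled RNA of small intestine per the labels. Feature Extraction 11.5.1.1 is named in the submitters' processing notes. Per the file headers, the deposited intensity had its background subtracted and spatial trend removed, with no scaling across arrays. The authors' value table holds log2 values. Over 39408 probes it equals the scaled level after each probe was centred on its median, with 100% of values within 0.01, and its column medians were -0.11 and 0.12 for knockout 1 and 2 and 0.05 and -0.10 for wild type 1 and 2.

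Control and outlier-flagged spots were left out, replicate spots were averaged on the log2 scale, and each array's 75th percentile was subtracted. That percentile was 322 and 175 in knockout and 226 and 356 in wild type, no probe was saturated, and precision is limited by the number of arrays. Of 39429 probes, 28025 matched 1 symbol by accession in RefSeq's GRCm38.p6 table. A probe was kept if well above background on 2 or more arrays, and the brightest probe stood for a gene. All 14399 genes were fitted together in limma 3.58.1 (R 4.3.3) with an intensity trend and Benjamini-Hochberg adjustment at 0.05. The fit was also run on simulated data with independent noise of equal spread in both genotypes. Its outcome is not reported here, and no result rests on it. Members and lists were chosen with earlier results of these data known. Named are all members, Cyp3a11, the 4 lowest p values of each list, up to 2 brightest markers per list, and the 3 genes most like a member that varied by at least 1; some of these genes are not reported here. Alternatives changed the background correction, scaling, filter, probe rule, variance model, replicate block and arrays used.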

Additional observations from a re-analysis of the deposited data

How the results depend on the processing

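None of the 4 tested members passed the threshold in the 11 other settings that gave a test or in the 4 fits that left out an array, where the lone array is assumed to vary like the other genotype; the lowest adjusted p was 0.22, for Vdr without knockout 2. Signs were less stable. After normexp all 4 differences were negative, at -0.43 for Vdr, -0.82 for Trpv6, -0.58 for S100g and -0.45 for Atp2b1, with a median of -0.52, and the cause was not tested. Quantile normalization gave -0.079 for S100g. Scaling to the enterocyte markers, added after seeing the data, gave -0.12 for Vdr, -0.17 for S100g and -0.13 for Atp2b1. The median over the 4 was then -0.15, against -0.25 over all genes tested. Leaving out 1 array at a time, differences ranged from -0.64 to 0.97 for Vdr, -0.57 to 0.043 for Trpv6, 0.02 to 0.21 for S100g and -0.43 to 0.75 for Atp2b1, and the median of the members ranged from -0.50 to 0.48.

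Genes higher and lower in knockout numbered 0 and 6. They were 3 and 10 after normexp, 1 higher with enterocyte scaling, 0 lower when all 4 arrays had to be well above background, a filter the deleted genes cannot pass, and 0 to 138 and 0 to 303 without 1 array, most without knockout 2. Replicate numbers mark no stated pairing and same-numbered deviations correlated at 0.05; with the replicate block 6 genes were higher and 26 lower, and no member passed.

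List medians after normexp were 0.89 for vitamin D supply, -0.06 for receptor partners, -0.47 for other receptor targets, -0.30 for calcium transport, -0.18 for magnesium transport and 0.21 for hormones and receptors. Enterocyte scaling moved the median over all genes tested to -0.25, so negative list medians there are not particular to the lists. With that scaling they were -0.16 for vitamin D supply, -0.23 for receptor partners and -0.29 for other targets. They were -0.13 for calcium transport, -0.15 for magnesium transport and -0.47 for hormones and receptors. Within the shared slide the hormones and receptors list stood at -0.74. Without 1 array the list medians ranged from -0.57 to 0.69 for vitamin D supply, -0.04 to 0.23 for partners and -0.16 to 0.02 for other targets. The ranges were -0.02 to 0.23 for calcium transport, 0.05 to 0.28 for magnesium transport and -0.78 to 0.17 for hormones and receptors.

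Among other named genes normexp turned the sign of Cyp27a1 (0.99), Ncoa3 (-0.46), Ncoa1 (-0.17), Cldn12 (-0.30), Cdkn1a (-0.24), Cacna1d (0.67), Calm2 (-0.45), Slc41a1 (0.42), Cnnm4 (-0.18), Klb (0.61), Prlr (-0.21), Stc2 (0.45) and Pth1r (0.18). Enterocyte scaling turned Dhcr7 (-0.025), Ncor1 (-0.027), Ncoa3 (-0.14), Ncoa1 (-0.19), Cldn12 (-0.10), Cdkn1a (-0.16) and Calm2 (-0.0080). Array median scaling turned Cyp2r1 (0.053), and the shared slide gave 0.75 for Cyp27a1 and 0.14 for Cyp2r1. Without 1 array the signs turned for Cubn (-0.39 to 2.21), Dhcr7 (-0.12 to 0.63), Cyp27a1 (-0.89 to 0.51), Cyp2r1 (-0.75 to 0.74), Ncor1 (-0.10 to 0.61), Ncoa1 (-0.033 to 0.22), Ncoa3 (-0.054 to 0.35), Cldn2 (-1.65 to 0.036), Cdkn1a (-0.36 to 0.62), Atp2a3 (-1.53 to 0.20), Stc2 (-1.09 to 0.21) and Pth1r (-0.91 to 0.36), and Cyp3a11 ranged from -11.19 to -9.93.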
